A study of Mus musculus with 70 samples.

Results

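Brain tissue holds cells that microglial profiling is meant to leave behind: those of the blood vessels, of the connective tissue around them, of the choroid plexus and of the ventricle lining. The genes described here are 33 transcripts listed by name as markers of such cells, out of 43346 genes in the deposited table. They comprise 15 endothelial, 6 pericyte, 3 smooth muscle, 4 fibroblast and 4 choroid plexus genes and 1 ependymal gene, and all 33 were found in the table, each in 1 row and annotated as protein coding.

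Their levels were read in 70 RNA-seq libraries of mouse forebrain in 17 groups. All mice carried Cx3cr1CreERT2-IRES-eYFP and Rpl22HA, each on 1 allele, and had received tamoxifen, so that Cre made in cells with an active Cx3cr1 promoter switched on an HA-tagged ribosomal protein, RPL22. The tagged cells are thus those with Cx3cr1 activity, mostly microglia, and not microglia alone. In RiboTag libraries (60 libraries, 14 groups) the tagged ribosomes were pulled down from homogenised forebrain of perfused mice, in sorted libraries (6 libraries, 2 groups) RNA came from digested tissue sorted for live (7AAD-) cells that were CD11b+ with low to intermediate CD45, and input libraries (4 libraries) were bulk forebrain. The LPS study held RiboTag pulldowns (n = 3) and sorted cells (n = 3) 24 hours after intraperitoneal LPS, a bacterial endotoxin, and pulldowns (n = 4), sorted cells (n = 3) and input (n = 4) after saline. The Poly(I:C) study held pulldowns 24 hours after Poly(I:C), which is double-stranded RNA that stands in for a virus, and after saline (n = 3 each). The APP/PS1 mice, a model of amyloid deposition, and their controls were 9 to 10 months old (n = 5 each), as were mice injected with rAAV1-TauP301L, a virus that carries a mutant human tau, or with rAAV1-GFP (n = 5 each). The ageing study held females at 3, 12 and 24 months (n = 5, 5 and 4) and males at 3, 12 and 24 months (n = 5, 4 and 4). The labels give no age for the LPS and Poly(I:C) studies.

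Endothelial cells of the brain form the blood-brain barrier, with tight junctions and with transporters that choose what passes, and pericytes and smooth muscle cells wrap them from outside. Fibroblasts lie in the meninges and around larger vessels and make collagen and small proteoglycans. The choroid plexus secretes cerebrospinal fluid and makes transthyretin, and ependymal cells move that fluid with cilia. None of these cells is known for strong activity of the Cx3cr1 promoter.

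The libraries held 20.5 to 47.2 M (1e6) reads in genes. Values are RPKM, reads per kilobase of gene length and per 1e6 reads, and are given per library in the order of the replicate numbers, while log2 differences are on the scale of log2(RPKM + 1) with the standard error of limma's model. That scale understates the change of weakly expressed genes. Summed levels of other cell types' markers set the frame. Microglial markers summed to 508 to 4056.9 RPKM in the pulldowns, 4983.3 to 7595.6 in sorted cells and 35.6 to 41.9 in the input. Neuronal markers summed to 182 to 368 RPKM in the pulldowns, 0.933 to 2.79 in sorted cells and 529 to 615 in the input, so the pulldowns were not free of RNA of other brain cells. Neutrophil and monocyte markers summed to 0.765 to 23.4 RPKM in the pulldowns and 5395.1 to 47989.3 in sorted cells, which runs against the gate's label of microglia. The saline pulldowns of the LPS study stood apart from each other, with microglial sums of 3072.4, 3672.8, 1187.8 and 1323.8 RPKM. By the design text each condition had 3 to 5 animals, and libraries are treated here as separate animals, so p-values measure the spread between these samples.

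In the pulldowns most of the 33 transcripts were present at low levels. Of the 33, 31 had more than 3 reads in every one of the 60 pulldowns, 16 had a median of at least 1 RPKM and 3 had a median of at least 5 RPKM. The choroid plexus gene Ttr, for the thyroid hormone and retinol carrier transthyretin, led with a median of 30.8 RPKM and a range of 1.66 to 42.6. Rgs5, a regulator of G protein signalling that marks pericytes, followed at 6.79 RPKM (3.22 to 17.4). Next came the barrier transporters Slc2a1, which carries glucose, at 6.05 (2.91 to 9.95) and Slco1a4, an organic anion transporter, at 4.52 (3.29 to 8.6).

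Between 1 and 3 RPKM by their median stood Acta2, the smooth muscle actin, at 2.88, the VEGF receptor gene Flt1 at 2.41, the PDGF receptor gene Pdgfrb of pericytes at 2.2, the matrix glycoprotein gene Vtn at 2.06 and the collagen chain gene Col1a1 at 1.92. Also in that band were Ly6c1, a surface antigen of brain endothelium, at 1.55, Itm2a, a membrane protein, at 1.42, the angiopoietin receptor gene Tek at 1.28, the cadherin gene Cdh5 of endothelial junctions at 1.24, the actin-binding protein gene Tagln at 1.17, the proteoglycan gene Dcn at 1.08 and Col1a2 at 1.03. Under 1 RPKM were 17 genes, headed by Kl, the FGF co-receptor klotho of the choroid plexus, at 0.969. The pericyte receptor gene Notch3 (0.846), the drug pump gene Abcb1a (0.809), the tight junction gene Cldn5 (0.746), the adhesion genes Esam (0.744) and Pecam1 (0.716), the smooth muscle myosin gene Myh11 (0.693), the potassium channel subunit genes Abcc9 (0.55) and Kcnj8 (0.317), and the VEGF receptor gene Kdr (0.502) lay in the middle of this band. The ciliogenesis factor gene Foxj1 stood at 0.422, the clotting factor gene Vwf at 0.285, the endothelial sialomucin gene Emcn at 0.262, the proteoglycan gene Lum at 0.258 and the receptor gene Tie1 at 0.215. The folate receptor gene Folr1 (0.106) and the water channel gene Aqp1 (0.0883) were the lowest, and were at 0 to 0.252 and 0.00553 to 0.209 RPKM.

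**Figure D1:**
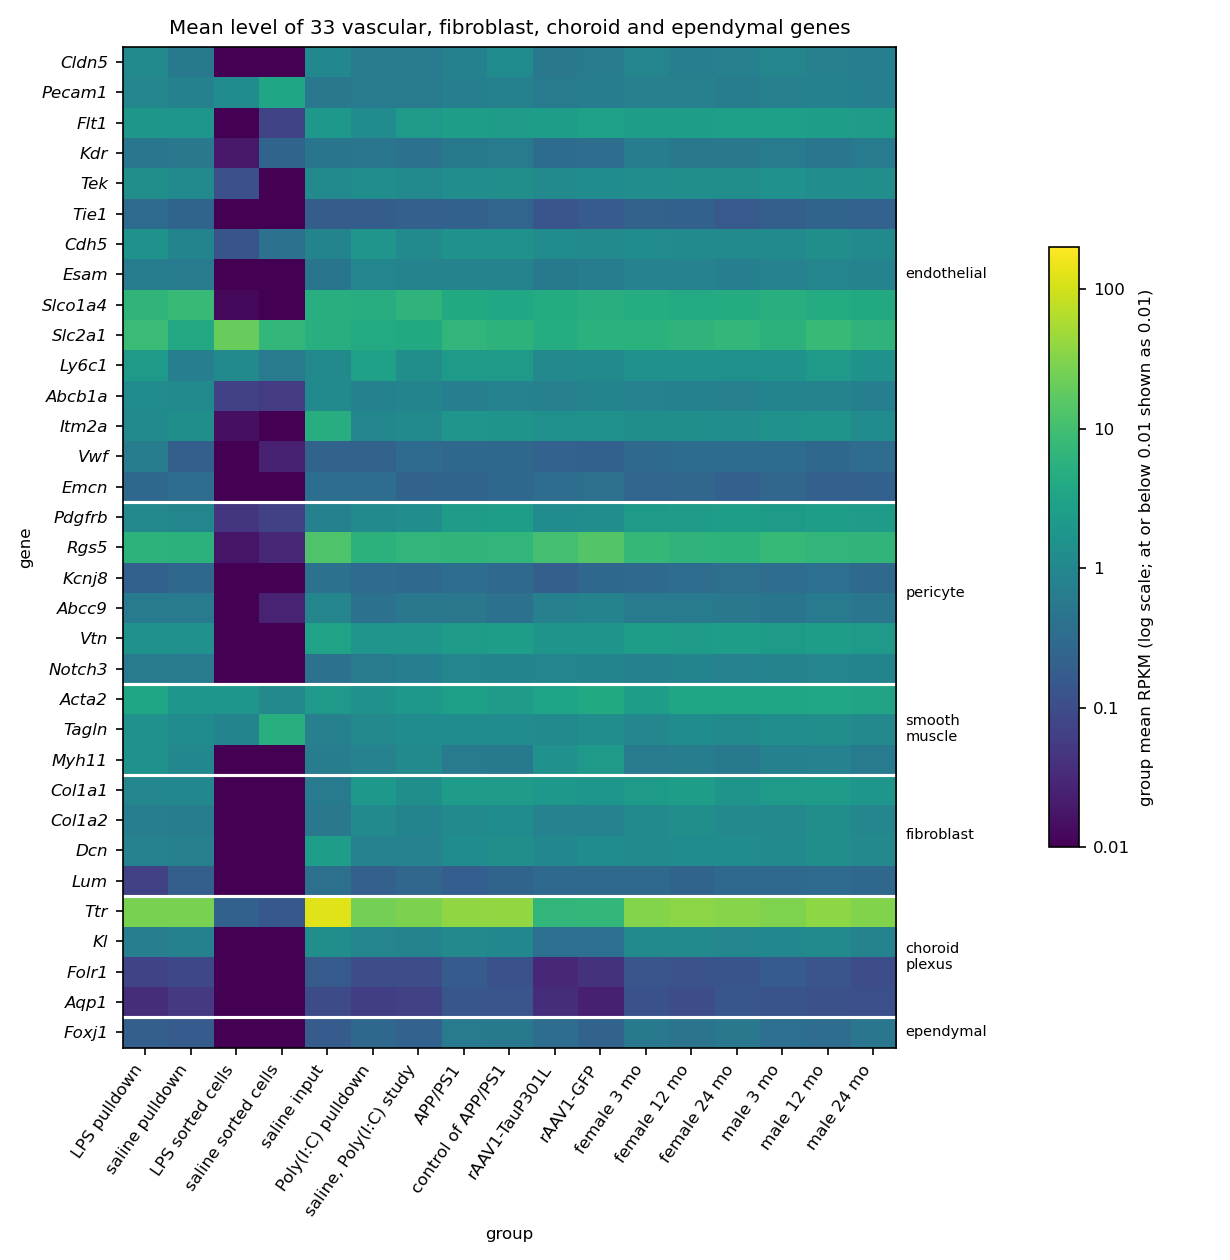
Mean level of each of the 33 genes (rows, grouped by cell type) in each of the 17 groups (columns), in RPKM as colour on a log scale. Ttr is the brightest row in input and pulldowns, the sorted columns are dark for most rows, and the columns of the mice given rAAV1 are dimmer for Ttr and brighter for Rgs5 than the other pulldowns.

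How far the pulldown removed these transcripts was measured with 4 saline pulldowns against 4 inputs. Some transcripts of pericytes, fibroblasts and the choroid plexus were lower in the pulldown, and of the endothelial transcripts 1 was lower and 1 higher. Of the 12 genes that passed the filter of a mean of at least 1 RPKM, 1 was higher and 6 were lower by limma with Benjamini-Hochberg adjustment over all genes at 0.05, where 56.8% of all 12780 tested genes were higher and 10.5% lower. The median log2 difference was -0.37 for the 12 and 0.41 for all tested genes. Pulldown and input both came from forebrain, so their contrast reads how much of a transcript was kept relative to other RNA. It does not measure the number of cells or the RNA per cell. In contrasts of treatment or age, bulk libraries like these cannot tell fewer cells of a type from less RNA per cell.

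Ttr fell the furthest of the 12. It stood at 37.4, 33.9, 20.2 and 17 RPKM in the pulldowns, against 112, 106, 149 and 125 RPKM in the input. Every pulldown lay far below every input, with replicates 3 and 4, the libraries with the lower microglial sums, the lowest. The log2 difference was -2.20 ± 0.26 (adjusted p = 0.000111), and the mean of the pulldowns was 0.221 of that of the input. Kl had 0.678, 0.85, 0.834 and 0.739 RPKM in the pulldowns, against 1.27, 1.32, 1.43 and 1.43 in the input, without overlap (-0.41 ± 0.08, adjusted p = 0.00109). Folr1, too low to be tested, had a mean of 0.0853 RPKM in the pulldowns and 0.167 in the input.

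Among pericyte genes, Rgs5 (ENSMUSG00000026678, chromosome 1, 169655501 to 169695813, mm10) had 6.1, 8.1, 5.74 and 3.22 RPKM in the pulldowns, against 12.3, 12.3, 13.6 and 14 in the input. All pulldowns were below all inputs, and the log2 difference was -1.10 ± 0.21 (adjusted p = 0.00126). Vtn had 1.56, 1.84, 1.11 and 1.41 RPKM in the pulldowns, against 2.86, 2.94, 3.63 and 2.76 in the input (-0.71 ± 0.11, adjusted p = 0.000478). These values did not overlap either. The channel subunit gene Abcc9 was below the filter, at 0.522, 0.589, 0.747 and 0.469 RPKM in the pulldowns, against 0.98, 0.767, 0.997 and 0.839 in the input, again without overlap. The pericyte receptor genes did not follow, in that Pdgfrb averaged 0.925 RPKM in the pulldowns and 0.765 in the input and Notch3 averaged 0.587 in the pulldowns and 0.41 in the input, with libraries that overlapped.

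The endothelial gene Itm2a (ENSMUSG00000031239, chromosome X, 107397099 to 107403376) had 1.45, 1.83, 1.36 and 0.816 RPKM in the pulldowns, against 4.36, 4.47, 4.36 and 5.69 in the input. It was lower in every pulldown, and the log2 difference was -1.29 ± 0.14 (adjusted p = 9.22e-05). Slco1a4 (ENSMUSG00000030237, chromosome 6, 141805440 to 141856199) ran the other way, with 7.97, 6.98, 8.19 and 8.6 RPKM in the pulldowns, against 4.62, 5, 5.24 and 5.34 in the input. It was the 1 gene of the 12 called higher, at 0.56 ± 0.10 (adjusted p = 0.000729), close to the median of all genes. With median-of-ratios scaling, which moved the median of all genes to 0.01, its difference was 0.08 with adjusted p = 0.549. Ly6c1 was below the filter, at 0.618, 0.78, 0.626 and 0.808 RPKM in the pulldowns, against 1.08, 1.02, 1.23 and 1.02 in the input, and every pulldown was the lower. The receptor genes Flt1 (-0.08, adjusted p = 0.34) and Tek (-0.03, adjusted p = 0.751), the drug pump gene Abcb1a (0.01, adjusted p = 0.94) and Slc2a1 (-0.32, adjusted p = 0.0753) did not pass the test.

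Within the fibroblast and smooth muscle groups the genes split. Dcn (ENSMUSG00000019929, chromosome 10, 97479500 to 97518162) had 0.938, 0.664, 0.768 and 0.664 RPKM in the pulldowns, against 2.26, 2.47, 2.84 and 2.91 in the input. It was lower in every pulldown (-1.04 ± 0.09, adjusted p = 5.26e-05), and so was Lum, below the filter, with a mean of 0.198 RPKM in the pulldowns and 0.389 in the input. The collagen genes did not follow, with Col1a1 at a mean of 1.01 RPKM in the pulldowns and 0.608 in the input and Col1a2 at 0.673 in the pulldowns and 0.518 in the input, both with overlapping libraries. Tagln had 1.32, 1.25, 1.05 and 1.25 RPKM in the pulldowns, against 0.548, 0.786, 0.741 and 0.874 in the input. It was higher in every pulldown without reaching the filter, while Acta2 (-0.19, adjusted p = 0.262) did not pass the test. Tagln lies on the opposite strand to Pcsk7, and with the strand setting of the counting not stated, reads of both cannot be told apart.

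Over all 33 genes, 3 were higher in every pulldown than in every input (Slco1a4, Esam and Tagln), 10 were lower and 20 overlapped. Of all 21754 genes with a mean of at least 10 reads in these libraries, 45% were higher and 7.81% lower in that sense. Genes lowered in the pulldown tended to be short. Over the 33, the log2 ratio of pulldown to input had a Spearman correlation of 0.53 with the gene length used for RPKM, described without a test and over genes that share the same 8 libraries. For 18 genes over 3000 bases the median log2 ratio was 0.10, and for 15 shorter genes it was -0.90. Over all genes the same correlation was 0.10, with medians of 0.67 for 10729 longer and 0.53 for 11017 shorter genes. The share of reads that fell in genes was 36.1% to 42.7% in these pulldowns and 26.5% to 29.4% in the inputs, and its part in these differences was not tested. With scaling, 11 of the 12 tested were lower and 0 higher in the pulldown, where 28% of all genes were lower, and the share of higher genes among all genes called went down to 48.9%, against 84.4% without it. On recovered reads (limma voom, a mean of at least 10 reads), 21 of 33 tested were lower and 0 higher, where 20.5% of all genes were lower.

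The other genes of these cell types, from longer lists, divided as well. Their counts are to be read against all 12780 tested genes, of which 7256 were higher and 1346 lower (median 0.41). With scaling that median was 0.01, and the lists are given here without scaling. Of 10 tested other endothelial genes, 7 were higher in the pulldown (median 0.56), led by the junction scaffold gene Tjp1 at 1.44 ± 0.10 and the drug pump gene Abcg2 at 0.59. Summed over the list, these other endothelial genes averaged 60.9 RPKM in the pulldowns, 32.1 in the input and 58.2 in saline sorted cells, so sorted cells held them as well, and the part of myeloid cells in their levels was not tested. Of 5 other fibroblast genes 3 were higher, such as the basement membrane collagen gene Col4a1 at 0.98, and 2 were lower, such as the matrix gene Mgp at -1.31. Of 4 other mural genes, 1 was higher (Atp13a5, 0.66) and 1 lower (Myl9, -0.48). The choroid plexus gene Enpp2 (-0.58) was the 1 of 3 called, and it was lower. For scale, all 17 microglial markers were higher, with a median of 4.85, and 11 of 12 neuronal markers were lower.

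**Figure D2:**
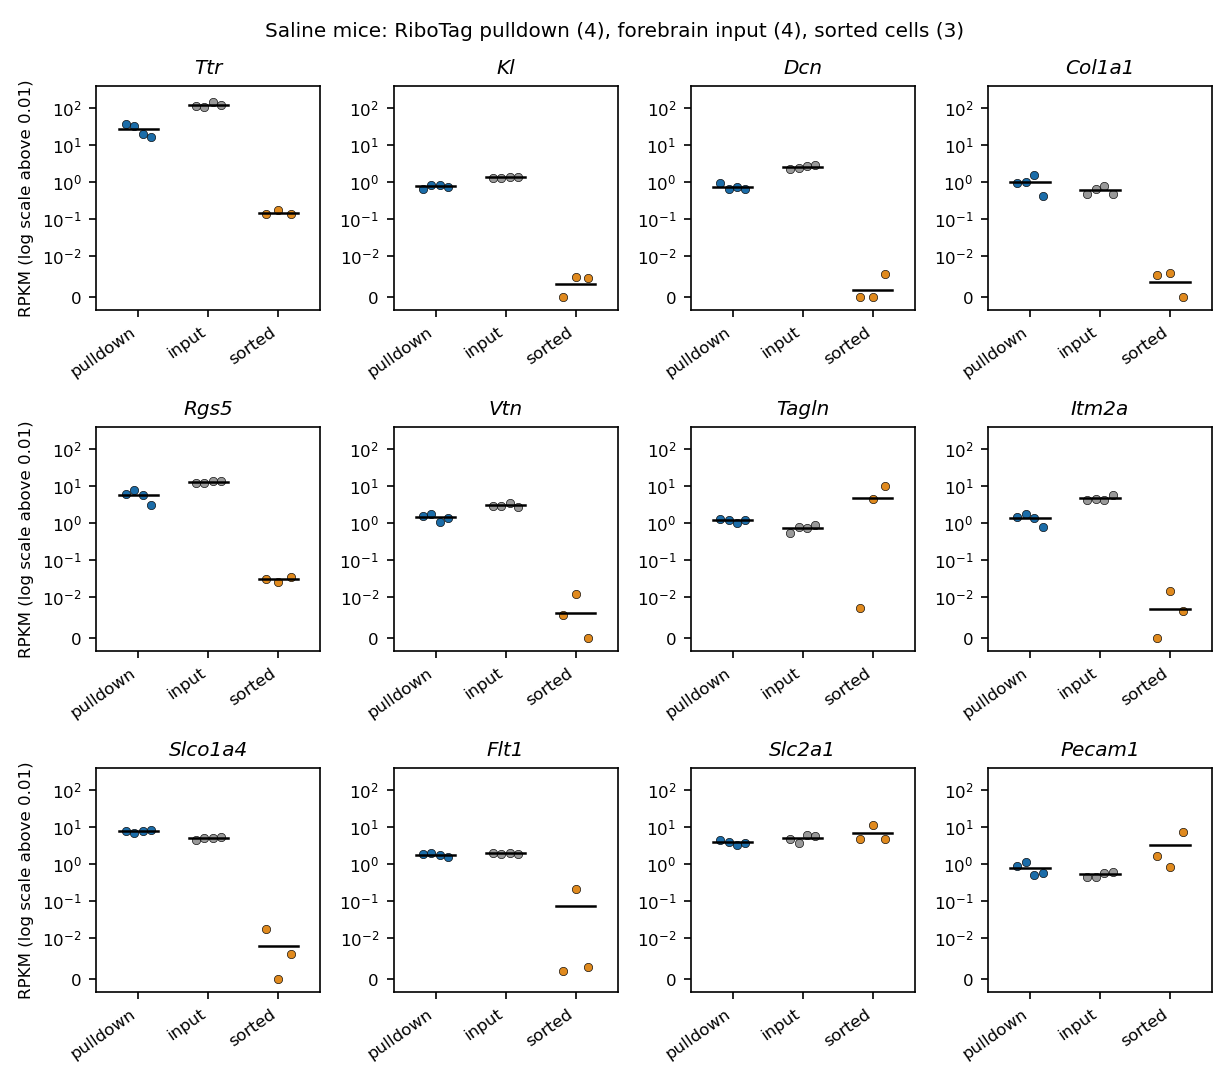
Level of 12 of the genes (RPKM, on an axis that is logarithmic above 0.01 and linear below it) in saline RiboTag pulldowns (n = 4), input (n = 4) and saline sorted cells (n = 3), with 1 point per library and a line at each mean. Ttr, Kl, Dcn, Rgs5, Vtn and Itm2a lie lower in the pulldown than in the input, Slco1a4 lies higher, and sorted cells lie near 0 for most genes but not for Slc2a1, Pecam1 and 2 of 3 points of Tagln.

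Sorted cells held far less of most of these transcripts than the pulldown did. The comparison of pulldown with sorted cells under saline had 8 testable genes, of which 4 were higher in the pulldown and 0 lower (30.3% of all genes were higher and 12.9% lower), with a median of 1.04 for the 8 and 0.25 for all genes. Without a filter on low values 25 of the 33 were higher, where 32.7% of all genes were. Over libraries, 26 of the 33 were higher in every pulldown than in every sorted library and 1 was lower. Of the 32 with a mean of at least 10 reads, 25 were higher in that sense and 1 lower, where 43% of all such genes were higher and 10.7% lower. Scaling moved the median of all genes to -0.02 and took the share of higher genes among all called to 57.3%, against 70.2% without it. Of the 7 genes tested with scaling, 3 were higher and 1, Slc2a1, was lower.

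Ttr had 37.4, 33.9, 20.2 and 17 RPKM in the pulldowns, against 0.135, 0.178 and 0.136 in sorted cells. The mean of the pulldowns was 181 times that of sorted cells, and the log2 difference was 4.54 ± 0.31 (adjusted p = 2.27e-05). Rgs5 had 6.1, 8.1, 5.74 and 3.22 RPKM in the pulldowns, against 0.0311, 0.0253 and 0.0365 in sorted cells (2.67 ± 0.27, adjusted p = 0.000136), a ratio of means of 187. Sorted libraries thus held a trace of both, at a level that was alike in the 3 libraries. Slco1a4 had 7.97, 6.98, 8.19 and 8.6 RPKM in the pulldowns, against 0.0184, 0 and 0.00615 in sorted cells (3.14 ± 0.16, adjusted p = 1.01e-05). Flt1 had 1.87, 1.98, 1.77 and 1.6 RPKM in the pulldowns, against 0.00204, 0.22 and 0.00307 in sorted cells (1.39 ± 0.16, adjusted p = 0.000261). Here sorted replicate 2 stood above the other sorted libraries, although far below every pulldown.

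Several transcripts were not detected at all in the 3 saline sorted libraries. Set against a floor of 3 reads in each sorted library, Tek was at least 133-fold higher in the pulldown, Notch3 at least 123-fold, Esam at least 45.5-fold, Tie1 at least 31-fold, Lum at least 10.7-fold, Folr1 at least 5.12-fold and Aqp1 at least 3.56-fold. These bounds cover counting error only. The small bounds belong to genes that were near the limit of detection in the pulldown too.

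A few genes stayed in sorted cells, and unevenly. Of the 33, 5 had a mean of at least 1 RPKM in a sorted group, and 24 were under 0.1 RPKM in both. Slc2a1 had 4.46, 4.02, 3.34 and 3.85 RPKM in the pulldowns, against 4.92, 11.3 and 4.76 in sorted cells, all of them above every pulldown (-0.61, adjusted p = 0.146), and with scaling it passed the test as lower in the pulldown (-0.88, adjusted p = 0.0282). Pecam1 had 1.69, 0.836 and 7.48 RPKM in saline sorted cells, Tagln 0.00744, 4.55 and 10.3, and Acta2 0.172, 0.0645 and 2.93. Each was high in 1 or 2 libraries and low in the rest, sorted replicate 3 being the highest for all of Pecam1, Tagln and Acta2. Cdh5 was at 1.22, 0.0352 and 0.00297 RPKM, high in replicate 1, and Kdr averaged 0.239 RPKM with 1 sorted library at 0. Ly6c1 averaged 0.708 RPKM in the pulldowns and 0.604 in sorted cells, with overlap, but its near-copy Ly6c2 is made by monocytes and their reads may be shared. Markers of neutrophils and monocytes were high in these same libraries, and their part in the levels of Slc2a1, Pecam1 and Ly6c1 was not tested.

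After LPS the contrast between methods was of like size. Of 8 tested genes 3 were higher in the pulldown and 1 lower (21.3% of all genes were higher and 8.83% lower), with a median of 0.92 for the 8 and 0.22 for all genes. Without the filter 25 were higher and 1 lower, where 28.7% of all genes were higher, and 28 of the 33 were higher in every pulldown than in every sorted library. Of the 30 with a mean of at least 10 reads, 25 were higher in that sense, where 42.1% of all such genes were. Scaling moved the median of all genes to -0.08 and the share of higher genes among all called to 60.9%, against 70.6% without it.

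After LPS, Ttr had 21.3, 29.1 and 30.4 RPKM in the pulldowns, against 0.18, 0.145 and 0.319 in sorted cells (4.51 ± 0.24, adjusted p = 0.000213). Rgs5 had 5.17, 6.6 and 6.24 RPKM in the pulldowns, against 0.0121, 0.0167 and 0.0241 in sorted cells (2.78 ± 0.20, adjusted p = 0.000267). No library of 1 method came near the other, and the ratios of the means were 125 for Ttr and 340 for Rgs5. Slco1a4 had 8.29, 6.27 and 5.09 RPKM in the pulldowns, against 0.00714, 0.00987 and 0.0207 in sorted cells (2.88 ± 0.24, adjusted p = 0.000306). The tight junction gene Cldn5 was at 0 in all 3 sorted libraries and at least 37.8-fold higher in the pulldown by the same floor, as Emcn was by at least 36.8-fold, Foxj1 by at least 12.9-fold and Kcnj8 by at least 11.4-fold. The gene that ran the other way was Slc2a1, with 6.59, 9.95 and 8.87 RPKM in the pulldowns, against 16.3, 29.6 and 14.5 in sorted cells (-1.11 ± 0.33, adjusted p = 0.0489). All sorted values were above all pulldown values, but the call held only when LPS sorted replicate 3 was the library left out. Without LPS sorted replicate 1 or 2 the adjusted p was 0.0601 and 0.0583, without LPS pulldown replicate 1, 3 or 4 it was 0.174, 0.114 and 0.145, and with a pseudocount of 0.1 it was 0.0501.

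The promoters of the genes that carried a called response to a treatment or to age were read from RefSeq for build GRCm38.p6, as the 250 bases before the annotated start on the strand of the gene, and those with a searched motif are printed for 4 of them. Acta2 is shown for CArG boxes, the element that serum response factor binds in smooth muscle genes, at chr19:34255374-34255623 on the minus strand. Slc2a1 is shown for ACGTG, the core of the hypoxia element, at chr4:119108495-119108744 on the plus strand. Ly6c1 at chr15:75048664-75048913 on the minus strand, 1 of 2 annotated starts, and Flt1 at chr5:147726012-147726261 on the minus strand are shown for AGGAAG, a core that ETS factors of endothelial cells bind. Capitals mark these motifs.
Acta2: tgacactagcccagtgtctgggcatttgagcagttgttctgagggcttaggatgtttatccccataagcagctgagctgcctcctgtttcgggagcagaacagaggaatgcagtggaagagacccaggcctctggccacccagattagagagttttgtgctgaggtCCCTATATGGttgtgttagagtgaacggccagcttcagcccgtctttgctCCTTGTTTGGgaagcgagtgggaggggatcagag
Slc2a1: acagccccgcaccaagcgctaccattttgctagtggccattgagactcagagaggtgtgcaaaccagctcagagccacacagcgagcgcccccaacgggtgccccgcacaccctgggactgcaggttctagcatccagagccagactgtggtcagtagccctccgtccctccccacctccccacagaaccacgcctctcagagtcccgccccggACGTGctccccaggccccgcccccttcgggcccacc
Ly6c1: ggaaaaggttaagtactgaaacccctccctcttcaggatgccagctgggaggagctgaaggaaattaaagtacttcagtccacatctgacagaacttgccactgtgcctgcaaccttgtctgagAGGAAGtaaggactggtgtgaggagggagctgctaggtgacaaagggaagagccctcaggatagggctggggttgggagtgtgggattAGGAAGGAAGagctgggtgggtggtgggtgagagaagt
Flt1: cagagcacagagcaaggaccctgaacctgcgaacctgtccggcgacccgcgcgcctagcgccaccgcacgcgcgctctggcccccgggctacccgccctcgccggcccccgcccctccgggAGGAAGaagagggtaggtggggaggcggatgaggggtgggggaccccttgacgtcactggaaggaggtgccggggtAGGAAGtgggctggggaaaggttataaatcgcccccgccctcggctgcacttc

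Both strands were searched in the 20 of the 33 genes that the promoter table holds and in all 32851 promoters of that table. The strict CArG box was in 0 of the 20 and in 1.47% of all promoters, and a CArG box with at most 1 C or G inside was in 4 of the 20 (20%) and in 8.59% of all, with 2 in Acta2. ACGTG was in 3 of the 20 (15%) and in 16.6% of all. AGGAAG was in 9 of the 20 (45%) and in 29.5% of all, with 3 matches in the Ly6c1 stretch, of which 2 overlap, none at its other start (chr15:75048838-75049087), and 2 in Flt1. The 3 matches of Ly6c1 lie inside the span of the gene that is given below, and the stretch without a match lies before that span. The stretch of Slc2a1 runs past the start of the span given below for that gene, and its ACGTG lies across that start. The NF-kB site was in 2 of the 20 (10%) and in 3.9% of all, and an interferon response element in 0 of the 20 and in 2.98% of all. A match says only that the letters are in the window.

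The response to LPS by pulldown was read in 3 LPS and 4 saline libraries. Of 8 tested endothelial genes 2 rose, and of 3 tested smooth muscle genes 1 did. The 2 endothelial genes, Ly6c1 and Slc2a1, were also present in saline sorted cells. Their means there were 0.604 and 6.98 RPKM, against 0.708 and 3.91 in saline pulldowns. The smooth muscle gene, Acta2, was uneven in sorted cells. It had 0.172, 0.0645 and 2.93 RPKM there after saline and 5.42, 0.0711 and 0.0224 after LPS. The part of myeloid cells in the rise of these 3 genes, or of reads that Ly6c1 shares with Ly6c2, was not tested. None of 2 pericyte genes and 1 choroid plexus gene that were tested passed, and none of the 4 fibroblast genes reached the filter. Of 14 tested genes 3 were higher and 0 lower, where 12% of all 13989 tested genes were higher and 0.322% lower, and the median was 0.12 for the 14 and 0.11 for all genes, which scaling moved to -0.01. The count of 3 of 14 is to be read against those 12%.

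Ly6c1 (ENSMUSG00000079018, chromosome 15, 75044018 to 75048830), whose promoter stretch is given above, had 1.54, 2.32 and 2.55 RPKM after LPS, against 0.618, 0.78, 0.626 and 0.808 after saline. All LPS libraries were above all saline libraries, and LPS replicate 1 was the lowest of the 3. The mean was 3.02-fold higher, and the log2 difference of 0.86 ± 0.13 (adjusted p = 0.0068) was not lost by leaving out any of the 7 libraries. Slc2a1 (ENSMUSG00000028645, chromosome 4, 119108711 to 119137330) had 6.59, 9.95 and 8.87 RPKM after LPS, against 4.46, 4.02, 3.34 and 3.85 after saline. These did not overlap, and the mean was 2.16-fold higher (0.93 ± 0.16, adjusted p = 0.00909), a call that was lost without LPS replicate 3 (adjusted p = 0.0537) or LPS replicate 4 (adjusted p = 0.053). Acta2 (ENSMUSG00000035783, chromosome 19, 34241090 to 34255336) had 2.81, 4.54 and 3.32 RPKM after LPS, against 2.31, 1.84, 1.88 and 1.13 after saline. It did not overlap either and its mean was 1.99-fold higher (0.71 ± 0.18, adjusted p = 0.0369). Its call was lost without saline replicate 3 or 4 (adjusted p = 0.0802 and 0.0609) or LPS replicate 3 or 4 (adjusted p = 0.167 and 0.115).

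Other tested genes did not pass. Cdh5 had 1.24, 1.76 and 1.59 RPKM after LPS, against 0.896, 0.906, 1.09 and 0.545 after saline, without overlap (0.45 ± 0.13, adjusted p = 0.061). Tek did not overlap either, with 1.24, 1.38 and 1.34 RPKM after LPS, against 1.17, 0.967, 1.08 and 1.11 after saline. Differences were near 0 for Ttr (0.05, adjusted p = 0.949), Rgs5 (0.09, adjusted p = 0.862), Flt1, Vtn and Abcb1a (0.05, 0.05 and 0.04), and were 0.32 for Myh11 (adjusted p = 0.211) and -0.26 for Slco1a4 (adjusted p = 0.377).

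Below the filter, 3 more genes had libraries that did not overlap, among them a gene of fibroblasts. The clotting factor gene Vwf had 0.527, 0.912 and 0.551 RPKM after LPS, against 0.247, 0.223, 0.156 and 0.174 after saline, a ratio of means of 3.32. Cldn5 had 0.89, 0.978 and 1.43 RPKM after LPS, against 0.464, 0.56, 0.466 and 0.666 after saline, a ratio of 2.04. Lum had 0.126, 0.0432 and 0.0382 RPKM after LPS, against 0.183, 0.188, 0.217 and 0.204 after saline, a ratio of 0.349. On recovered reads with a mean of at least 10, Vwf passed (1.54, adjusted p = 0.00242), Lum passed (-1.92, adjusted p = 0.0293) and Cldn5 did not (0.83, adjusted p = 0.0805). Over all 33, 7 genes were higher in every LPS library and 1, Lum, was lower, where 17.8% of all genes with a mean of at least 10 reads were higher in that sense and 4.65% lower.

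Beside these genes, 4 of 11 tested other endothelial genes were higher, among them the surface antigen gene Ly6a (1.64 ± 0.24, adjusted p = 0.00604), the amino acid transporter gene Slc7a5 (1.17, adjusted p = 0.00981) and the sialomucin gene Cd34 (1.06, adjusted p = 0.0161). Of 5 endothelial activation genes 3 were higher, which were Lcn2 (2.65 ± 0.13, adjusted p = 6.43e-05), an iron-trapping protein of acute inflammation, and the leukocyte adhesion genes Icam1 (1.31) and Vcam1 (0.83). The activation genes summed to a mean of 33.3 RPKM in LPS pulldowns and 18.4 in saline pulldowns but 514 in LPS sorted cells and 215 in saline sorted cells. Sorted cells thus held more of this list than the pulldowns did, so it does not mark endothelium alone. The part of myeloid cells in its changes, here, after Poly(I:C) and with age, was not tested. None of 3 other mural and 3 other choroid plexus genes was called, and 1 of 5 fibroblast genes was (Fn1, fibronectin, 0.66). The endothelial members summed to 27.7, 30.9 and 27.5 RPKM after LPS, against 22.5, 22.6, 21.4 and 21.7 after saline, without overlap. That sum includes the called genes, with means after saline and LPS of 3.91 and 8.47 for Slc2a1 and 0.708 and 2.14 for Ly6c1. The mean of Slco1a4 was 7.93 after saline and 6.55 after LPS. For the 8 tested endothelial members the median log2 difference was 0.10, against 0.11 for all genes. Microglial markers summed to 3094.0, 4056.9 and 3613.5 RPKM after LPS, against 3072.4, 3672.8, 1187.8 and 1323.8 after saline, and the part of this spread in the results was not tested. Perivascular macrophage markers summed to 50.0, 63.7 and 59.8 RPKM after LPS, against 43.6, 53, 15.2 and 16.8 after saline, with 2 of 6 called higher, and 3 of 10 oligodendrocyte markers were called lower. Their part was not tested either. Without saline replicates 3 and 4, Acta2 had 0.55 with adjusted p = 0.132, and in a fit that shared its spread with the sorted libraries no gene of the 33 passed (adjusted p = 0.0991 for Ly6c1 and 0.238 for Slc2a1).

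In sorted cells 4 of the 33 genes were testable, and limma called 0, with 1 at an unadjusted p under 0.05 and 0 by voom. Of all genes 0.548% were higher and 0.0783% lower, and scaling took their median to -0.01, against 0.25 without it, and the share of higher genes among all called to 71%, against 87.5%. The gene at the unadjusted threshold was Slc2a1, with 16.3, 29.6 and 14.5 RPKM after LPS, against 4.92, 11.3 and 4.76 after saline. All LPS values were above all saline values, but the model gave 1.43 ± 0.49 with adjusted p = 0.266, and with all 4 groups in 1 fit it passed, with adjusted p = 0.0235. The change of Slc2a1 with LPS was not shown to differ between the methods, as the interaction was -0.50 ± 0.46 (adjusted p = 0.797), and that of Ly6c1 was 0.52 ± 0.33. In limma's interaction 0 of 9 tested genes passed (0 had an unadjusted p under 0.05, and voom called 0), where 0.101% of all genes were higher and 0.158% lower.

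**Figure D3:**
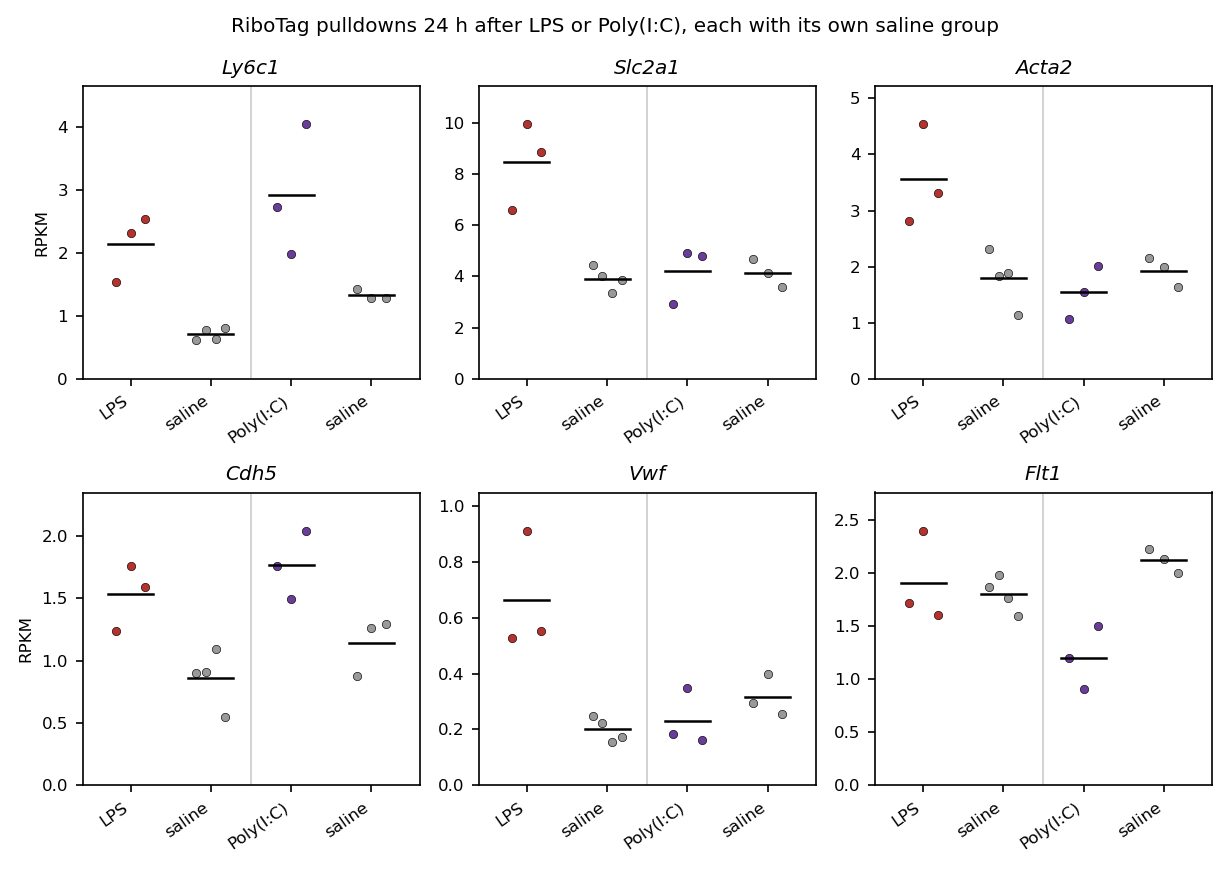
Levels of Ly6c1, Slc2a1, Acta2, Cdh5, Vwf and Flt1 (RPKM) in RiboTag pulldowns after LPS or Poly(I:C), each beside the saline group of its study, with 1 point per library and a line at each mean. Ly6c1, Slc2a1 and Acta2 lie above saline after LPS, Flt1 lies below saline after Poly(I:C), and Slc2a1 overlaps with saline there.

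After Poly(I:C) 1 endothelial receptor gene was lower and no gene was called higher. Of 14 tested genes 0 were higher and 1 lower, where 6.27% of all genes were higher and 0.23% lower, with medians of -0.09 for the 14 and -0.02 for all genes. Flt1 (ENSMUSG00000029648, chromosome 5, 147561604 to 147726011) had 1.2, 0.908 and 1.5 RPKM after Poly(I:C), against 2.23, 2.13 and 2 after saline. All treated values were below all controls, with a ratio of means of 0.567 and a log2 difference of -0.51 ± 0.12 (adjusted p = 0.0456). The call held only when Poly(I:C) replicate 3 was the library left out. Without saline replicate 1, 2 or 3 the adjusted p was 0.175, 0.17 and 0.137, without Poly(I:C) replicate 1 or 2 it was 0.123 and 0.0679, and without the filter on low values it was 0.128.

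Ly6c1 pointed upward as it did after LPS, with 2.73, 1.98 and 4.05 RPKM after Poly(I:C), against 1.43, 1.28 and 1.29 after saline. It did not overlap and its mean was 2.19-fold higher, but it missed the threshold (0.72 ± 0.18, adjusted p = 0.0607), passing on recovered reads with a mean of at least 10 (adjusted p = 0.0414). Cdh5 had 1.76, 1.49 and 2.04 RPKM after Poly(I:C), against 0.875, 1.26 and 1.29 after saline (0.37, adjusted p = 0.165). Slco1a4 had 5.12, 5.02 and 4.19 RPKM after Poly(I:C), against 6.76, 5.87 and 5.96 after saline (-0.32, adjusted p = 0.173). Neither overlapped and neither passed. Of all the genes described here, 3 were higher in every Poly(I:C) library than in every saline library, 2 were lower and 28 overlapped. The higher ones were Ly6c1, Cdh5 and Emcn, which was below the filter. Emcn had 0.309, 0.346 and 0.368 RPKM after Poly(I:C), against 0.291, 0.178 and 0.243 after saline. For this comparison the share of all genes that did not overlap is not given, so these counts have no background to be read against. Slc2a1, by contrast with its values after LPS, had a difference of 0.00 (adjusted p = 0.999), while Ttr had -0.20 and Rgs5 -0.23, and neither was called. Col1a1 was spread widely after Poly(I:C), at 1.18, 1.64 and 3.09 RPKM, against 1.39, 1.46 and 1.27 after saline.

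Of 13 other endothelial genes 2 were higher, Ly6a by 3.22 ± 0.20 (adjusted p = 0.000113) and Cd34 by 0.52 (adjusted p = 0.0116), and of 4 activation genes 2 were higher, Icam1 by 0.82 and Vcam1 by 0.74. None of 3 mural, 4 fibroblast, 6 choroid plexus and 2 ependymal genes of the longer lists was called. Microglial markers summed to 1117.6, 1015.6 and 1529.7 RPKM after Poly(I:C), against 547, 508 and 512 after saline, and 11 of 17 were higher. Their part in the results was not tested.

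In APP/PS1 mice no gene of the 33 passed the test. Of 17 tested genes limma called 0 between APP/PS1 mice and their controls, with 0 at an unadjusted p under 0.05 and 0 by voom, where 0.52% of all genes were higher and 0.79% lower. The share of higher genes among all called was 68.8% with scaling and 39.7% without. The median was 0.02 for the 17 and -0.03 for all genes. Ttr, whose protein is known to bind amyloid, had 37.7, 40.9, 30.4, 41.1 and 39.7 RPKM in APP/PS1 mice, against 41.1, 36.4, 39.9, 39.1 and 40.9 in controls (-0.06 ± 0.07). Slc2a1 had 7.09, 6.62, 5.37, 6.98 and 7.71 RPKM in APP/PS1 mice, against 5.98, 6.74, 6.06, 4.78 and 6.04 in controls (0.16 ± 0.09, adjusted p = 0.376). Both overlapped. The 1 gene of the 33 with groups that did not overlap, where 3.08% of all genes with a mean of at least 10 reads were lower in that sense, was Cldn5, at 0.76, 0.839, 0.97, 0.469 and 0.897 RPKM in APP/PS1 mice, against 1.25, 1.11, 1.42, 1.07 and 1.12 in controls. Its ratio of means was 0.66, it was below the filter, and it passed neither without the filter (adjusted p = 0.191) nor on recovered reads (-0.60, adjusted p = 0.0797). Of 12 other endothelial genes 1 was called, Cd34, at 0.33 ± 0.04 (adjusted p = 0.00497).

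Between mice given rAAV1-TauP301L and those given rAAV1-GFP limma likewise called 0 of 16 tested genes, with 1 at an unadjusted p under 0.05 and 0 by voom, where 0.7% of all genes were higher and 0.552% lower. The medians were -0.11 for the 16 and -0.01 for all genes. The gene at the unadjusted threshold was Rgs5, at 9.88, 8.11, 8.98, 14.5 and 10.8 RPKM with TauP301L, against 12.3, 17.4, 14.4, 10.9 and 14.5 with GFP (-0.39 ± 0.14, adjusted p = 0.207). Most but not all TauP301L libraries were below the GFP libraries. Ttr had 1.66, 4.85, 8.05, 3.53 and 15.3 RPKM with TauP301L, against 9.54, 3.24, 4.54, 12.3 and 6.31 with GFP (-0.24 ± 0.45), a wide spread in both. Myh11 had 1.08, 0.711, 0.764, 3 and 1.9 RPKM with TauP301L, against 1.2, 3.08, 2.17, 0.953 and 3.02 with GFP.

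The 10 libraries of mice given rAAV1 differed from the other 50 pulldowns in several of these genes. Ttr ranged over 1.66 to 15.3 RPKM (median 5.58) in the 10, against 17 to 42.6 (median 32.3) in the 50, and was the 1 gene of the 33 whose ranges did not meet. The share of all genes with such ranges is not given here, so that count has no background to be read against. The choroid plexus sum was 2.02 to 16 RPKM in the 10 and 17.9 to 44.1 in the 50. That sum was mostly Ttr, with means in the GFP mice of 7.18 RPKM for Ttr and 7.62 for the sum. The other choroid plexus genes of the 33 were low there too, but with ranges that met. Kl was at 0.228 to 0.681 RPKM in the 10 and 0.648 to 1.32 in the 50. Folr1 was at 0 to 0.0778 in the 10 and 0.0296 to 0.252 in the 50. Aqp1 was at 0.00553 to 0.0708 in the 10 and 0.00732 to 0.209 in the 50. The longer list of other choroid plexus genes overlapped as well. It summed to 22.3 to 31.1 RPKM in the 10 and 25.5 to 37.4 in the 50. Of the pericyte and smooth muscle genes, 3 were shifted the other way. Rgs5 ranged over 8.11 to 17.4 RPKM (median 11.6) in the 10 and 3.22 to 8.2 (median 6.61) in the 50, Myh11 over 0.711 to 3.08 in the 10 and 0.452 to 2.14 in the 50, and Abcc9 over 0.62 to 0.948 in the 10 and 0.357 to 0.747 in the 50. The others of these groups were not shifted upward together, with medians in the 10 and the 50 of 1.27 and 2.31 RPKM for Pdgfrb, 1.67 and 2.16 for Vtn, 0.247 and 0.326 for Kcnj8, 0.9 and 0.84 for Notch3, 1.24 and 1.17 for Tagln and 3.13 and 2.86 for Acta2, all with ranges that met. Kdr was lower, at 0.265 to 0.453 RPKM in the 10 and 0.382 to 0.795 in the 50, but the endothelial sum overlapped widely, at 16.6 to 26.5 in the 10 and 20.1 to 30.9 in the 50. The APP/PS1 mice and their controls, at 9 to 10 months as well, are among the 50. No mouse without a virus belonged to the tau study, so the injection and the study cannot be told apart, and no test was made.

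**Figure D4:**
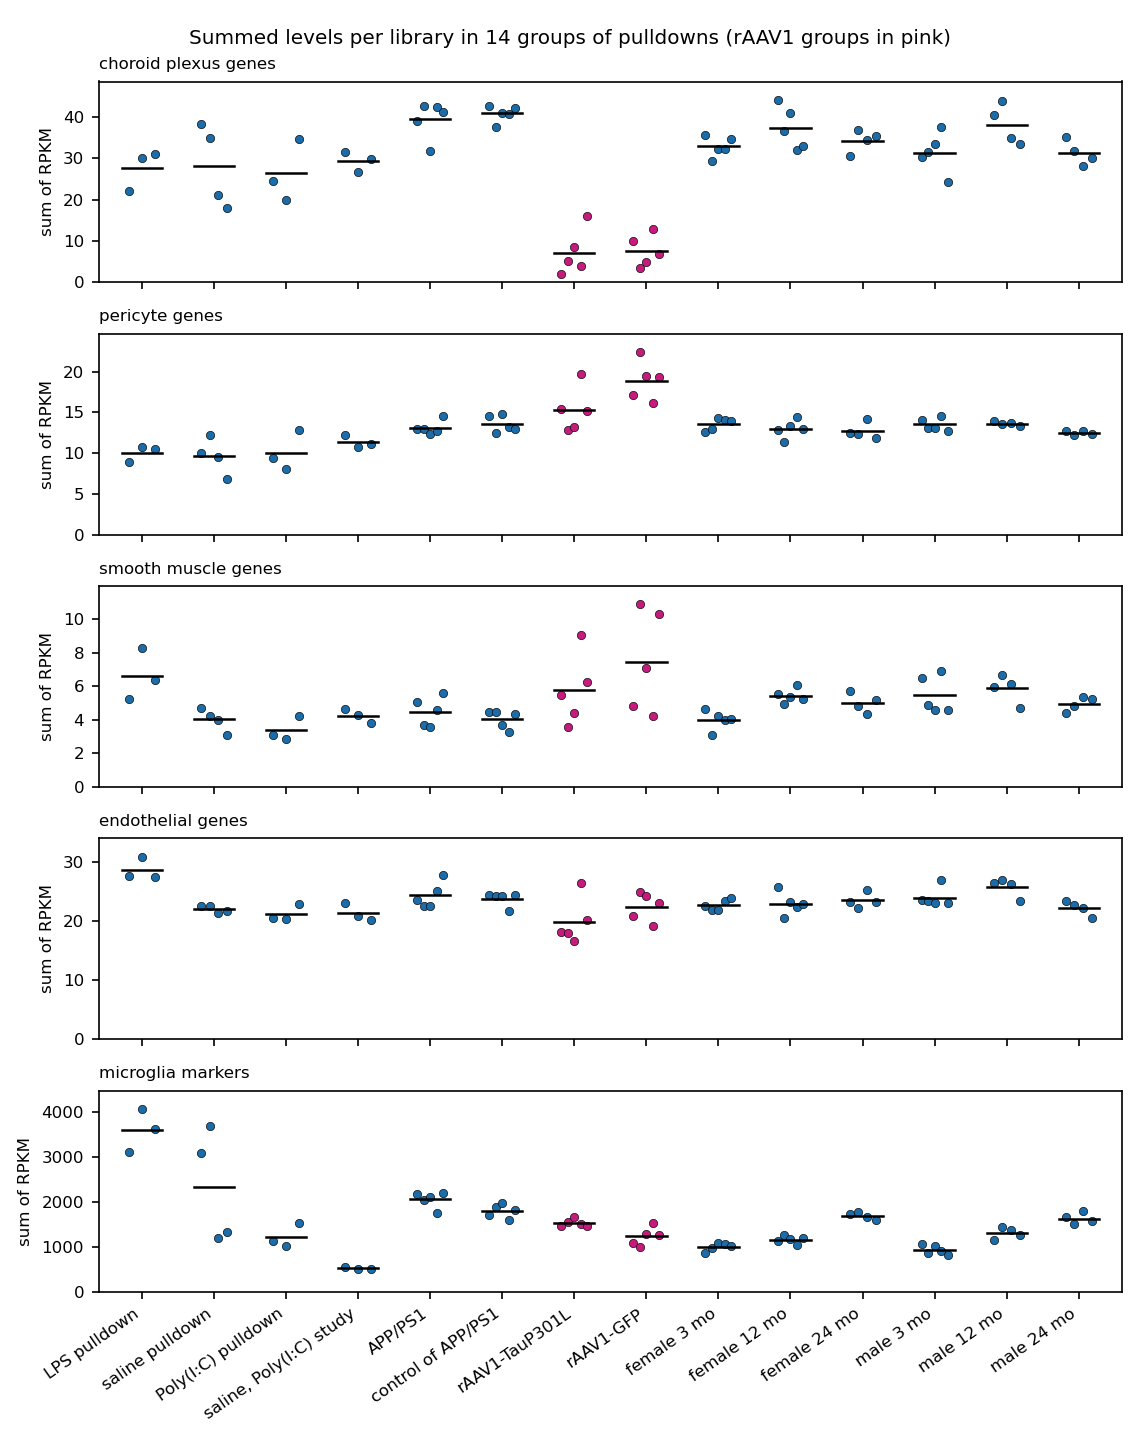
Summed RPKM of the choroid plexus, pericyte, smooth muscle and endothelial genes and of microglial markers in each of the 60 RiboTag pulldowns, by group, with 1 point per library and a line at each group mean. The choroid plexus sum, which is mostly Ttr, lies at 2.02 to 16 in the 10 libraries of mice given rAAV1, under all other pulldowns. The mean endothelial sum is highest after LPS.

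Levels also differed between the untreated or control groups of the studies, which sets a scale for the changes above. Over 6 such groups (the saline groups of both challenge studies, the APP/PS1 controls, the GFP mice and both sexes at 3 months), the highest group mean was at least 2 times the lowest for 14 of the 33 genes, with a median ratio of 1.8. Aqp1 (5.59), Ttr (5.5), Folr1 (4.1) and Myh11 (3.82) varied the most, each with the GFP mice at an extreme. Slco1a4 averaged 7.93 RPKM in the saline pulldowns of the LPS study and 3.86 in the APP/PS1 controls, and Ly6c1 averaged 0.708 RPKM in those same saline pulldowns and 2.09 in the APP/PS1 controls, a ratio of 2.95 that is close to the 3.02-fold difference with LPS. Pdgfrb averaged 0.925 RPKM in the saline pulldowns and 2.6 in the APP/PS1 controls. Kcnj8 varied the least (1.21). Age, batch and study move together across these groups and cannot be told apart.

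Ageing was followed at 3, 12 and 24 months in each sex, with 17 of the 33 genes tested and the groups at 12 and at 24 months compared with 3 months in a fit of all 6 groups. The contrasts within a sex share the libraries at 3 months. In females at 12 months 1 gene was higher and 0 lower, where 2.56% of all genes were higher and 0.387% lower, with medians of 0.03 for the 17 and 0.04 for all genes. In females at 24 months 2 were higher and 1 lower, where 16.7% of all genes were higher and 3.41% lower, with medians of -0.01 and 0.05. In males at 12 months 1 was higher and 0 lower, where 12.4% of all genes were higher and 1.44% lower, with medians of 0.12 and 0.07. In males at 24 months 0 were higher and 2 lower, where 17.2% of all genes were higher and 6.21% lower, with medians of -0.08 and 0.04. With scaling, the share of higher genes among all called changed to 45.2%, against 86.8%, in females at 12 months, to 50.2%, against 83%, in females at 24 months, to 49.3%, against 89.6%, in males at 12 months and to 44%, against 73.4%, in males at 24 months.

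The pericyte gene Rgs5 was lower at 24 months in both sexes. In females it had 6.7, 7.19, 7.58, 7.58 and 7.09 RPKM at 3 months, 6.09, 5.38, 6.74, 7.63 and 6.05 at 12 months and 6.04, 5.74, 6.52 and 5.83 at 24 months. All values at 24 months were below all values at 3 months, and those at 12 months spanned both. The difference of 24 against 3 months was -0.23 ± 0.06 (adjusted p = 0.0104) and held without each of the 9 libraries. In males it had 7.56, 7.58, 6.93, 8.04 and 7.39 RPKM at 3 months, 7.32, 6.79, 6.66 and 6.44 at 12 months and 6.98, 6.36, 6.35 and 6.41 at 24 months. The difference was -0.18 ± 0.06 (adjusted p = 0.0404), with 1 library at 24 months above the lowest at 3 months, and held only when replicate 3 at 3 months or replicate 1 at 24 months was the library left out. Without replicate 1, 2, 4 or 5 at 3 months the adjusted p was 0.0622, 0.067, 0.0958 and 0.0566, and without replicate 2, 4 or 5 at 24 months it was 0.0873, 0.101 and 0.0851.

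The glucose transporter gene Slc2a1 was higher in older females and in males of 12 months. In females it had 5.05, 4.55, 5.16, 6.18 and 6.53 RPKM at 3 months, 7.83, 5.59, 6.51, 5.57 and 6.15 at 12 months and 7.08, 6.87, 6.77 and 7.37 at 24 months. All values at 24 months were above those at 3 months (0.31 ± 0.09, adjusted p = 0.0185). In males it had 6.17, 5.01, 5.44, 6.64 and 5.95 RPKM at 3 months, 7.86, 8.57, 8.6 and 6.28 at 12 months and 6.07, 6.14, 6.6 and 6.14 at 24 months. It was higher at 12 months (0.36 ± 0.09, adjusted p = 0.0128), with 1 library in the range of 3 months, and at 24 months the difference was 0.09 (adjusted p = 0.554). The call in females at 24 months was lost without replicate 2 at 3 months (adjusted p = 0.0613) and with scaling (0.24, adjusted p = 0.0508). That in males at 12 months was lost without replicate 2 or 3 at 12 months (adjusted p = 0.0595 and 0.0555) and in a fit of only the 2 groups (adjusted p = 0.0565).

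Acta2 was called in females. It had 2.86, 1.71, 2.59, 2.57 and 2.55 RPKM at 3 months, 3.55, 3.24, 3.67, 3.88 and 3.52 at 12 months and 3.89, 3.14, 2.85 and 3.44 at 24 months. All values at 12 months were above all at 3 months (0.41 ± 0.10, adjusted p = 0.0265), and at 24 months 1 library lay within the range of 3 months (0.33 ± 0.11, adjusted p = 0.0296). Replicate 2 at 3 months was the lowest, and without it the adjusted p was 0.0998 at 12 months and 0.0995 at 24 months. The call at 12 months was also lost without replicate 1 or 3 of that age (adjusted p = 0.0611 and 0.061), and that at 24 months without replicate 1 or 5 of that age (adjusted p = 0.114 and 0.0642). With scaling the difference at 24 months was 0.27 (adjusted p = 0.069), and without the filter the adjusted p was 0.0637 at 12 months and 0.0657 at 24 months. In males Acta2 had 4.29, 2.97, 3, 3.98 and 2.98 RPKM at 3 months, 3.94, 4.27, 3.95 and 2.84 at 12 months and 2.74, 3.26, 3.63 and 3.54 at 24 months. These overlapped, and the difference of 24 against 3 months was -0.04. Its change with age did not pass the test of a difference between the sexes (0.37 ± 0.15, adjusted p = 0.3).

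Slco1a4 was called in males of 24 months, with 4.58, 4.23, 3.52 and 4.08 RPKM, against 4.54, 5.11, 4.69, 5.73 and 4.56 at 3 months. The highest value at 24 months lay just above the lowest at 3 months, and the difference was -0.22 ± 0.07 (adjusted p = 0.0202), a call lost without replicate 4 at 3 months (adjusted p = 0.0676) or replicate 4 at 24 months (adjusted p = 0.114). With scaling 7 of the 17 genes were lower in males at 24 months, where 15.4% of all genes were, and by voom 5 were, where 8.79% of all genes were. Of the 17 microglial markers 2 were higher in females at 12 months, 9 in females at 24 months, 15 in males at 12 months and 16 in males at 24 months, and their part in the vascular changes was not tested.

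Of other endothelial genes in females at 24 months 3 of 12 were higher, among them Cd34 (0.35), Ramp2 (0.23), a co-receptor of adrenomedullin, and Ly6a (0.38), and 2 were lower, while 2 of 4 activation genes were higher (Icam1 0.38 and Vcam1 0.42). In males at 12 months 4 of 12 were higher, such as Tjp1 (0.19), Slc7a5 (0.29) and Ramp2 (0.26). In males at 24 months 1 was higher (Cd34, 0.31) and 2 were lower (Palmd, -0.29, and Ptprb, a phosphatase of endothelial receptors, -0.17), with Icam1 at 0.45. The fibroblast list gave Col4a1 lower in females (-0.17) and in males (-0.18) at 24 months and Fn1 lower in males at 24 months (-0.49).

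Sex itself gave no call among the 33. Over the 3 ages limma called 0 of 17 genes between females and males, with 3 at an unadjusted p under 0.05 (Rgs5 at -0.08, Vtn at 0.10 and Acta2 at -0.13) and 0 by voom, where 2.15% of all genes were higher and 0.838% lower. The difference between the sexes in the change at 24 months gave 0 calls as well, with 3 at an unadjusted p under 0.05 (Tagln at 0.25, Flt1 at 0.19 and Acta2 at 0.37) and 0 by voom, where 0.0775% of all genes were higher and 0.0141% lower.

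**Figure D5:**
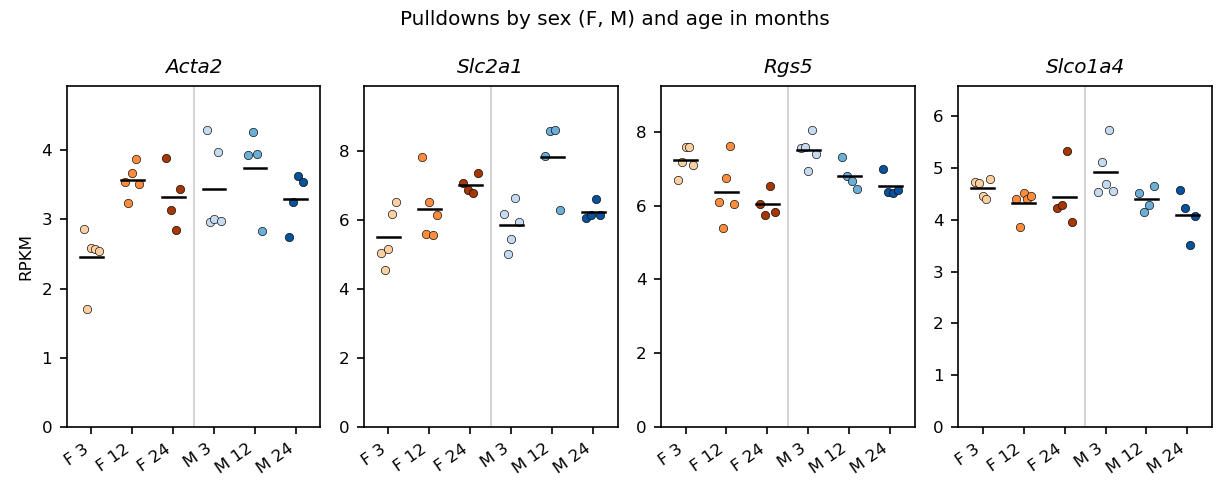
Levels (RPKM) of Rgs5, Slc2a1, Acta2 and Slco1a4 at 3, 12 and 24 months in females and males, with 1 point per library and a line at each mean. Rgs5 is lower at 24 than at 3 months in both sexes, Slc2a1 is highest at 24 months in females and at 12 months in males, and Acta2 is higher at 12 and 24 months than at 3 months in females.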

How the data were processed

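RNA of mouse forebrain was sequenced in 70 libraries of 17 groups. The values were the RPKM deposited by the authors, in 1 table of 43346 genes. The submitters' processing notes name CASAVA, TopHat2, featureCounts and the mm10 build. Tool versions and the strand setting of the counting: not given in the sources used here. Reads recovered from the steps of the RPKM values were whole for 100% of genes within 0.01 and summed to 20.5 to 47.2 M per library, against RPKM denominators of 49.5 to 119.9 M. Reads outside genes therefore enter every RPKM, and a library with a larger share of them has lower values.

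Comparisons were fitted on log2(RPKM + 1) with limma 3.58.1 in R 4.3.3 (trended variance), over genes that averaged 1 RPKM or more in the fit, with Benjamini-Hochberg adjustment over all genes tested and a call at 0.05. Each comparison was fitted on its own groups, apart from the interaction of LPS with method (4 groups) and the ageing and sex contrasts (6 groups). The steps were tested on simulated data. Alternatives were a pseudocount of 0.1, no filter, a filter at 5 RPKM, scaling by median of ratios, limma voom on recovered reads, a replicate block, other groups in the fit and leaving out each library. Added after seeing the data were voom on genes with a mean of at least 10 reads and the LPS study without saline pulldown replicates 3 and 4. A fold against libraries that were all at 0 is a bound set by 3 reads per library.

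The 33 genes and the other marker lists were picked by name, with earlier results of these data known. All 33 were described. Of each other list, the count called and at most 3 called genes with the smallest adjusted p were named. Summaries used pandas 2.3.3 and numpy 2.4.6 under Python 3.11.15, and plots matplotlib 3.10.9. Promoters were RefSeq's for GRCm38.p6, and 13 of the 33 genes were not in that table.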

Additional observations from a re-analysis of the deposited data

Results flagged for a closer look

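In groups of 4 or 5 libraries in which a gene averaged 1 RPKM or more, a library far from the others was found for 13 of 192 pairs of gene and group, where chance gives about 1 in 20. Each is given as its value in RPKM, with the range of the others of its group.

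For endothelial genes, Flt1 stood at 3.64 in TauP301L replicate 4 (others 2.03 to 2.43) and at 2.5 in replicate 2 of males at 24 months (2.29 to 2.31). Itm2a stood at 5.69 in input replicate 4 (4.36 to 4.47), at 0.996 in a GFP library (1.66 to 1.81) and at 1.64 in replicate 4 of females at 3 months (1.28 to 1.34). Ly6c1 stood at 2.29 in replicate 1 of females at 12 months (1.17 to 1.48) and at 1.59 in replicate 4 of males at 12 months (2.28 to 2.33). Slc2a1 stood at 6.6 in a library of males at 24 months (6.07 to 6.14), Slco1a4 at 3.87 in replicate 2 of females at 12 months (4.4 to 4.52) and Tek at 1.39 in replicate 4 of females at 3 months (1.24 to 1.27).

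For mural genes, Acta2 stood at 1.71 in replicate 2 of females at 3 months (2.55 to 2.86). Its calls with age were lost without that library, and each was also lost without some others. Rgs5 stood at 6.98 in replicate 1 of males at 24 months (6.35 to 6.41), and Vtn at 2.34 in a library of males at 24 months (1.86 to 1.91). Of the 33 genes, 9 were tested for a difference of the LPS effect between methods, and those of the ageing fit for a difference between sexes. Limma's interaction terms called none of the genes tested, and genes below the filter were not tested.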

How the results depend on the processing

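The 26 pairs of gene and comparison that were called kept their direction and call in 332 settings, kept the direction without the call in 60, of which 34 left out 1 library, and reversed in 0. Counts of the 33 genes called moved as follows, and apart from fewer or more genes tested or samples used the cause was not tested. Without a filter on low values the counts were 12 for pulldown against input (7 as reported), 25 and 26 for pulldown against sorted cells after saline and after LPS (4 each), 0 for Poly(I:C) (1), 0 for females at 12 months (1) and 1 for males at 24 months (2). With a mean of at least 5 RPKM they were 3, 1 and 2 for the 3 contrasts of method, 1 for LPS in pulldowns (3), 0 for Poly(I:C), 0 for females at 12 months and 1 for males at 24 months. With scaling they were 11 for pulldown against input, 1 for females at 24 months (3), 3 for males at 12 months (1) and 7 for males at 24 months. With voom they were 11 for pulldown against input, 2 for Poly(I:C), 2 for females and 2 for males at 12 months and 5 for males at 24 months, and with voom on genes with a mean of at least 10 reads 21, 25 and 20 for the contrasts of method, 5 for LPS, 2 for Poly(I:C), 2 for males at 12 months and 6 for males at 24 months. With 4 groups in 1 fit LPS gave 0 in pulldowns and 1 in sorted cells (0), and fits of only the 2 groups gave 0 for females and 0 for males at 12 months and 1 for males at 24 months. With the replicate block, LPS in pulldowns gave 1 and males at 24 months 1. With it, Slc2a1 and Acta2 were no longer called after LPS in pulldowns (adjusted p = 0.0697 and 0.106). Only for pulldown against sorted cells after LPS did every pair of libraries with the same number match each other best. The correlations of their deviations were low there, at 0.0604 and 0.0223. The labels do not say whether such libraries share an animal, so the numbers were not used for pairing in the reported fits. Leaving out each library in turn gave 7 to 9 for pulldown against input, 3 to 5 and 3 to 5 for pulldown against sorted cells, 1 to 3 for LPS in pulldowns, 0 to 2 for Poly(I:C), 0 to 2 for females at 12 months, 1 to 4 for females at 24 months, 0 to 4 for males at 12 months and 0 to 4 for males at 24 months. It gave 0 throughout for LPS in sorted cells, its interaction, APP/PS1, TauP301L, age by sex and sex. The filter at 1 RPKM kept the lower genes out of the reported fits, and depth limits Folr1 and Aqp1, which had 0 and 1 reads in their lowest pulldowns.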
